A study of Mus musculus with 22 samples.

Results

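The genes described here are germline genes known to be held silent by promoter DNA methylation in somatic and primed pluripotent cells. They were chosen by name: Dazl, Ddx4, Mael, Tdrd1, Asz1, Sycp1, Sycp3, Hormad1, Slc25a31 and Tex19.1. Of these 10 symbols, 9 were found as names in the deposited gene counts, where they took 10 of 34489 gene rows, because Slc25a31 had 2 rows. Tex19.1 was absent under that name. Its Ensembl gene, ENSMUSG00000039329, is named Tex19 in the counts, so its values are given apart as Tex19.1 by ID and it is not counted among the members. Methylation was not measured in the data analysed here, so the label describes what is known of the genes and was not tested.

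Germline genes encode proteins that germ cells need for meiosis, for germ cell mRNA translation and for the piRNA pathway, in which small RNAs direct the silencing of transposons. Many of them have CpG-rich promoters that gain DNA methylation when the epiblast leaves the naive state, and their repression also involves a complex of Polycomb proteins, called PRC1.6, whose DNA-binding subunits include MGA with MAX and E2F6. Naive mouse ES cells in 2iL are known for low genome-wide DNA methylation.

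Bulk RNA-seq covered 22 libraries in a study that asked whether activators of the energy sensor AMPK return primed mEpiSCs (mouse epiblast stem cells, cultured in FGF2 and Activin A) to the naive state. The primed group held 1 library of Oct4GIP mEpiSCs, which carry a GFP and puromycin resistance transgene under Oct4 regulatory sequence, and 1 library of 129/MSM mEpiSCs, derived from a cross of a 129X1/SvJ female and an MSM/Ms male. Oct4GIP cultures on MEF feeders (mouse embryonic fibroblasts) were sampled as whole cultures at d8 and d16 in Basal medium alone, 2iL (LIF with the MEK inhibitor PD0325901 and the GSK3 inhibitor CHIR99021), AICAR or AICAR+LIF, with 4 libraries a day. After 16 days of treatment the cultures were expanded in 2iL, and the 11 expanded libraries are called reverted cells. Of these, 4 Oct4GIP libraries were taken after 2 or 3 passages (d16+2–3p, AICAR or AICAR+LIF). The other 7 were taken after 10 passages (d16+10p), 5 of them Oct4GIP libraries from metformin+LIF and from AICAR and A769662, each without and with LIF, and 2 of them 129/MSM libraries from AICAR without and with LIF. A769662 is a direct AMPK activator, AICAR is a precursor of an AMP analogue and metformin acts through the energy state of the cell. The naive reference was 1 library of Rex1-GFP mESCs in 2iL. The paper lists the Oct4GIP and Rex1-GFP lines as XX and the 129/MSM line as XY. By its methods, primed Oct4GIP cells were kept on fibronectin in a serum-free medium. Primed 129/MSM cells were kept on MEF feeders in another medium, with serum replacement. Line, medium and feeders therefore cannot be told apart between the 2 primed libraries. Each reverted library was grown in 2iL, so earlier treatment and growth in 2iL cannot be told apart in comparisons with primed cells.

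No condition had a replicate library. Libraries of one state stood in as samples, and p-values measure the spread between these libraries, which includes line, activator and passage. Library totals ranged from 438771 to 5290163 counts (median 2848382). Levels are CPM, the reads of a gene scaled to a common library size with edgeR's TMM factors, and 3 counts, taken as the floor, corresponded to 1.11 and 0.951 CPM in the primed Oct4GIP and 129/MSM libraries and to at most 5.95 CPM, in AICAR+LIF d8. Such floors cover counting error only. Naive markers such as Zfp42 and Esrrb summed to between 93.8 and 261 CPM in primed libraries and to between 2813 and 4897 CPM in reverted libraries, and all 8 were higher at d16+10p than in primed cells in edgeR's test. Of 8 primed markers, 7 were lower. The test across genes was edgeR's quasi-likelihood test with Benjamini-Hochberg adjustment over all genes tested and a threshold of 0.05.

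The promoters of the 9 named members were examined for CG dinucleotides and 2 motifs. Genes of this kind are known for CpG-rich promoters and repression by PRC1.6, so these features are not independent of the choice by name. In the 250 bases before the RefSeq start (GRCm38.p6), the members held 11 to 31 CG dinucleotides (median 18.0), against a median of 6 and quartiles of 2 and 16 over the windows of 27025 genes. All 9 lay above the median of all genes and 6 at or above the upper quartile. Ddx4 had the most CG dinucleotides (31), and Tdrd1 (11) and Sycp3 (12) had the fewest. The ratio of observed to expected CG ran from 0.531 in Tdrd1 to 1.0 in Ddx4, against a median of 0.379 over all genes. The letters CACGTG, the E-box core that MGA and MAX recognise, stood in the windows of 7 of 9 members, all but Dazl and Asz1, and in 6.04% of all windows. The E2F-type letters GGCGGGAA, or TTCCCGCC on the other strand, stood in 2 of 9, Ddx4 and Hormad1, and in 1.91% of all windows. Both motifs were present in those 2 members and in 0.167% of all windows. The window of Tex19.1, which is not counted among the members, held 15 CG dinucleotides and neither motif. The 150 bases nearest the start in the Ddx4 window, which hold both of its matches, lie inside a Ddx4 transcript of GENCODE M21, so part of its count is of transcribed sequence and it is not printed below. CACGTG reads the same on both strands, and no match of one motif overlapped a match of the other in these windows. A match describes the letters only and is not evidence of binding.

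**Figure D1:**
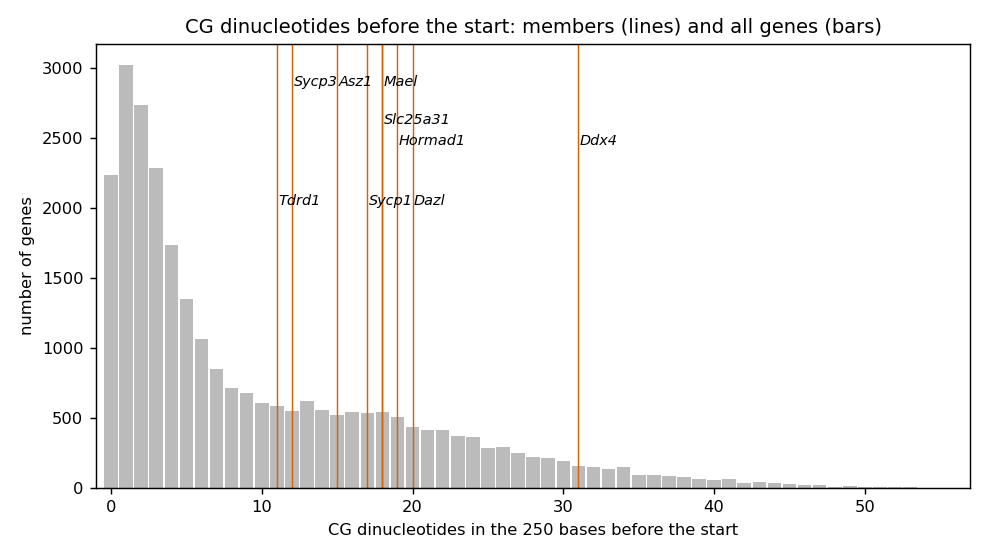
Number of CG dinucleotides in the 250 bases before the RefSeq start (horizontal axis) for 27025 genes, with the number of genes on the vertical axis and each named member drawn as a line. The 9 lines stand between 11 and 31, to the right of the median of all genes, 6.

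Promoters of 5 members are printed because they show the density of CG dinucleotides and the spacing of the searched motifs. Each is the 150 bases before the RefSeq start on GRCm38.p6, 5′ to 3′ on the strand of the gene, and capitals mark CACGTG and the E2F-type letters. Hormad1 (chr3:95559527-95559676, plus strand) has both motifs, Sycp3 (chr10:88459437-88459586, plus) has CACGTG at 2 places, Sycp1 (chr3:102936101-102936250, minus) and Slc25a31 (chr3:40708721-40708870, plus) have it once, and Dazl (chr17:50293621-50293770, minus) has neither motif. The last 16 bases of the Dazl and Slc25a31 windows and the last 18 of the Sycp3 window lie inside the GENCODE M21 gene, whose annotated start is further upstream.
Hormad1: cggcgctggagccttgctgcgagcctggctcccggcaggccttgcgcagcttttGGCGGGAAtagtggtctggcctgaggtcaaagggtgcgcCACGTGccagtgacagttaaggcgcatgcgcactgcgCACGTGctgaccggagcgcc
Sycp3: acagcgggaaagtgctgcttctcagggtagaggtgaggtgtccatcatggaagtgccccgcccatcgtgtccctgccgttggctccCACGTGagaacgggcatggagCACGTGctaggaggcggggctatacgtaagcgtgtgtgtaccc
Sycp1: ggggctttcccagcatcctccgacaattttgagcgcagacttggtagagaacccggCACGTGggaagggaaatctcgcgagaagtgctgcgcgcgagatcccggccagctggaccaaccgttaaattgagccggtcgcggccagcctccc
Slc25a31: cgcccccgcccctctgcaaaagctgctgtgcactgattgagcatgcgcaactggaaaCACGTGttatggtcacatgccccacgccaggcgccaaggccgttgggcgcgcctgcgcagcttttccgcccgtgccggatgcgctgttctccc
Dazl: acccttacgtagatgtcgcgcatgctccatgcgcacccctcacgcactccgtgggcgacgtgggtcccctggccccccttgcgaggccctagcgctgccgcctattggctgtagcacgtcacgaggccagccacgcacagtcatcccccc

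In these bulk libraries, the members were almost without reads before expansion in 2iL and were read in nearly every library after it. In the 10 libraries of primed cells and of d8 and d16 cultures, the 9 rows other than Ddx4 gave 90 values, of which 85 were 0 and 5 were a single read. In the 11 reverted libraries, the 10 rows gave 110 values, of which 4 were 0 and 87 were above 3 reads. The 4 values at 0 were Tdrd1 in Oct4GIP AICAR d16+10p and in 129/MSM AICAR+LIF d16+10p, Asz1 in 129/MSM AICAR d16+10p and Sycp1 in 129/MSM AICAR+LIF d16+10p. Ddx4 was the exception before expansion, with reads in 9 of those 10 libraries.

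**Figure D2:**
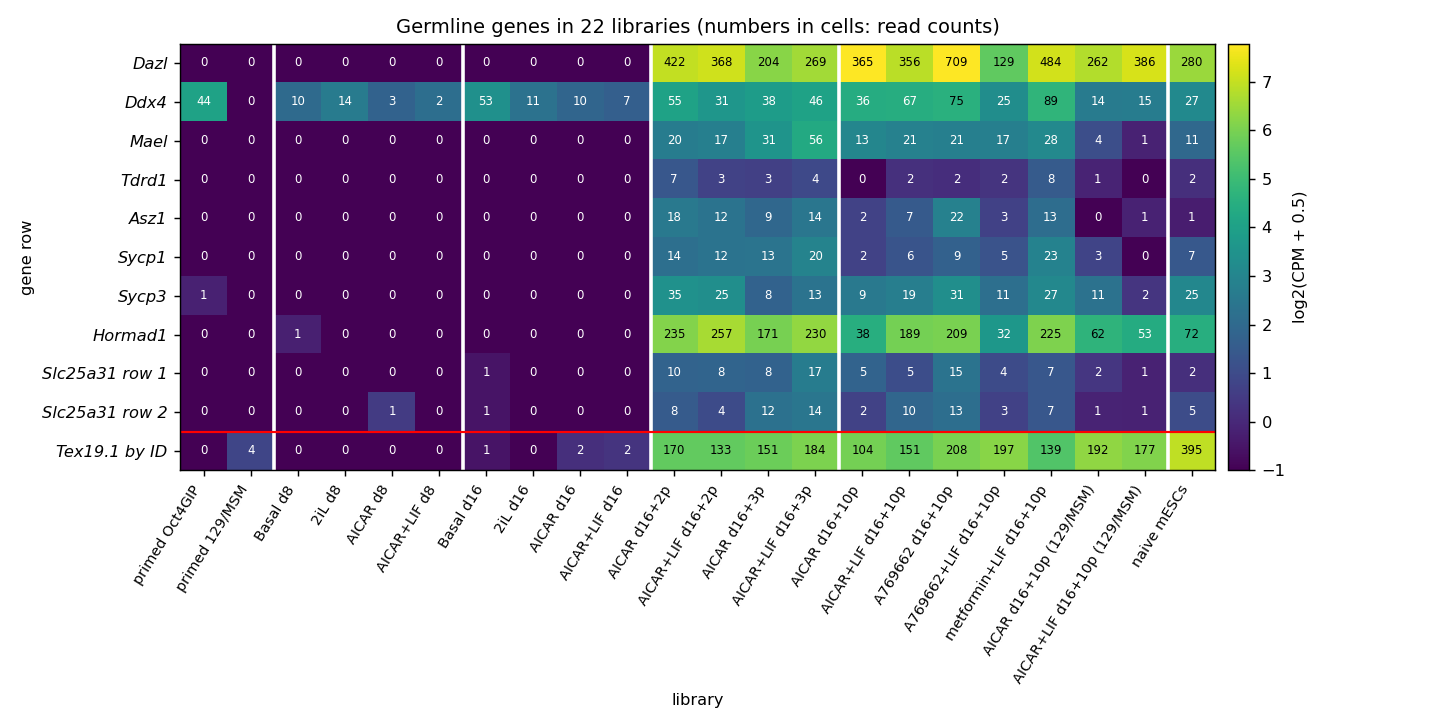
Each member row and Tex19.1 by ID (vertical axis) in the 22 libraries (horizontal axis), with the read count printed in each cell and the colour giving log2(CPM + 0.5). Cells left of the d16+2p libraries hold 0 or 1 read except for Ddx4 and the Tex19.1 row, and the 11 reverted libraries and the naive library hold reads for nearly every row.

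The first comparison asked how far the members differed between d16+10p cells and primed cells. Of the 10 rows, 9 passed the filter on low counts, all but Tdrd1, and 8 of those were called higher and 0 lower, while Ddx4 was not called. Over all 18739 genes tested, 36.6% were called, 16.7% higher and 19.9% lower. A row with no primed reads could pass the filter only through the libraries where it was read, so the count of called rows describes the members and carries no support of its own. The d16+10p and primed libraries did not overlap for 6 of the 9 rows tested, where 19.4% of all genes were higher without overlap. The median fitted log2 difference of the 9 rows was 5.70, or 1.04 with the 7 rows at 0 in primed cells set at their lower bound, against -0.01 and 0 for all genes tested.

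The second comparison set d16+2–3p cells against the same primed libraries, so it shares its controls with the first. Again 9 rows were tested, 8 were called higher and 0 lower, with Ddx4 not called, where 38.3% of the genes tested were called, 18% higher and 20.3% lower. Groups did not overlap for 8 rows, where 27.2% of all genes were higher and 26.2% lower without overlap. The median fitted log2 difference was 6.64, or 2.21 at the lower bounds, against -0.04 and -0.01 for all genes tested. Bulk libraries cannot tell a larger share of cells with a transcript from more transcript in each cell.

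Among the genes for germ cell RNA control, Dazl (ENSMUSG00000010592, chromosome 17, 50279395 to 50293636, minus strand on GRCm38), an RNA-binding protein that promotes translation of germ cell mRNAs, had 0 reads in both primed libraries and in all 8 cultures. At d16+2–3p it stood at 125 CPM with AICAR and 140 CPM with AICAR+LIF after 2 passages, and at 74.3 and 94.8 CPM after 3 passages. At d16+10p it ranged from 48.8 CPM in A769662+LIF to 219 CPM in A769662, with a median of 145 CPM. Every reverted library lay above every library before expansion, with 129 reads in the lowest. Dazl was at least 129-fold higher at d16+10p (143 ± 60.6 CPM, SD, n = 7) and at least 98.2-fold higher at d16+2–3p (109 ± 29.8, SD, n = 4) than the floor of the primed libraries. The adjusted p-values were 3.14e-06 and 7.23e-06 (edgeR). The paper reports Dazl before expansion by other means. In its single-cell data Dazl was highest in a small Oct4-positive population that appeared at d16 with AICAR+LIF. Its qPCR, after 2 days of culture, also found more Dazl mRNA in mEpiSCs given AICAR+LIF. By its discussion, neither AICAR nor LIF alone raised Dazl there. The bulk libraries here are of whole cultures, so 0 reads do not show that Dazl was absent from every cell.

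Ddx4 (ENSMUSG00000021758, chromosome 13, 112598333 to 112652475, minus strand), the DEAD-box RNA helicase also called VASA, followed another pattern. Primed Oct4GIP cells had 44 reads, or 16.2 CPM, and primed 129/MSM cells had none, which allows up to 0.951 CPM. At d16+2–3p the 4 libraries had 16.3, 11.8, 13.8 and 16.2 CPM, and at d16+10p the lowest value was 5.74, the median 21.2 and the highest 26.6 CPM. The primed Oct4GIP library lay inside the range of the reverted libraries. The fitted log2 difference from primed cells was 1.03 (SE 0.80, edgeR adjusted p = 0.341) at d16+10p and 0.86 (SE 0.84, edgeR adjusted p = 0.446) at d16+2–3p. Both values rested on which primed library was used, and limma voom called both, at 3.26 and 3.29. Without the primed Oct4GIP library they were 8.48 and 8.32, and without the primed 129/MSM library 0.00385 and -0.14.

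**Figure D3:**
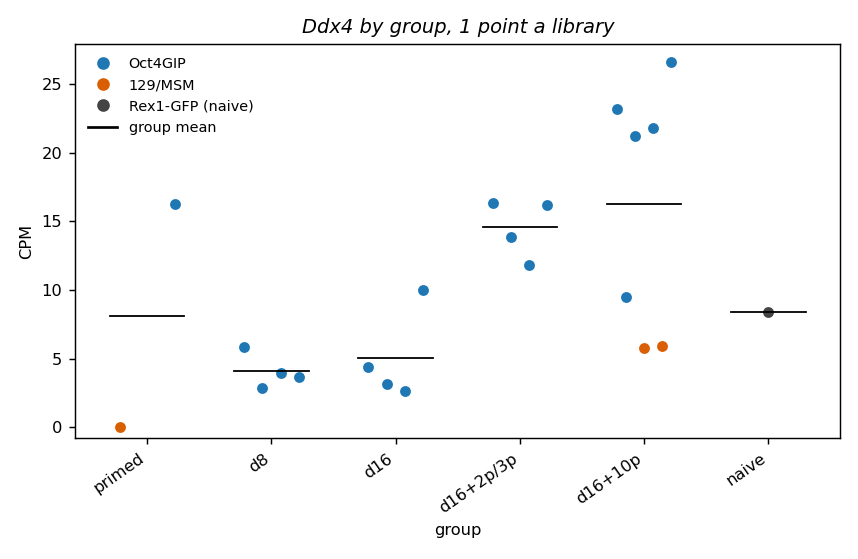
Ddx4 level in CPM (vertical axis) in each library by group (horizontal axis), coloured by cell line, with a line at the group mean. The 2 primed libraries stand at 0 and 16.2 CPM, the d8 and d16 cultures between 2.64 and 10.0 CPM, and the reverted libraries between 5.74 and 26.6 CPM.

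Of the piRNA pathway members, Mael (ENSMUSG00000040629, chromosome 1, 166201201 to 166238747, minus strand), which acts in transposon silencing in germ cells, had 0 reads in all 10 libraries before expansion. It stood at 5.94, 6.49, 11.3 and 19.7 CPM in the d16+2–3p libraries, and at d16+10p the lowest value was 0.393, the median 6.49 and the highest 8.36 CPM. The 2 lowest d16+10p values, 0.393 and 1.64 CPM, were those of the 129/MSM libraries. Mael was at least 4.88-fold higher at d16+10p (edgeR adjusted p = 0.00478) and at least 9.82-fold higher at d16+2–3p (edgeR adjusted p = 0.00176) than in primed cells.

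Asz1 (ENSMUSG00000010796, chromosome 6, 18050964 to 18109061, minus strand), a protein of the cytoplasmic structures in which piRNAs are made, also had no reads before expansion. It ranged from 3.28 to 5.35 CPM at d16+2–3p and from 0 to 6.80 CPM (median 1.18) at d16+10p, where it overlapped the primed libraries through 1 library at 0. By group means, it was at least 2.02-fold higher at d16+10p (edgeR adjusted p = 0.0296) and at least 4.10-fold higher at d16+2–3p (edgeR adjusted p = 0.0122). At d16+10p, Asz1 exceeded 3 reads in 3 of 7 libraries. Tdrd1 (ENSMUSG00000025081, chromosome 19, 56826209 to 56870012, plus strand), a Tudor-domain scaffold for PIWI proteins, did not pass the filter and was not tested. It had 7, 3, 3 and 4 reads in the d16+2–3p libraries and 0 to 8 reads at d16+10p, with 32 reads over the 11 reverted libraries and none in the 10 libraries before expansion.

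The meiotic members build or mark the chromosome axis or join paired chromosomes. Hormad1 (ENSMUSG00000028109, chromosome 3, 95559677 to 95587671, plus strand), a HORMA-domain protein of unsynapsed chromosome axes, had 0 reads in both primed libraries and 1 read in the 8 cultures. It stood at 69.8, 98.1, 62.3 and 81.1 CPM at d16+2–3p (77.8 ± 15.5, SD, n = 4). At d16+10p the lowest value was 12.1 CPM in A769662+LIF, the median 25.4 and the highest 67.2 CPM in metformin+LIF (39.2 ± 24.0, SD, n = 7). No reverted library overlapped a library before expansion. Hormad1 was at least 35.4-fold higher at d16+10p (edgeR adjusted p = 2.16e-05) and at least 70.3-fold higher at d16+2–3p (edgeR adjusted p = 9.49e-06) than in primed cells. Its promoter, printed above, has CACGTG at 2 places and 1 E2F-type match.

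Sycp3 (ENSMUSG00000020059, chromosome 10, 88459569 to 88473236, plus strand), a component of the lateral element of the synaptonemal complex, had 1 read in primed Oct4GIP cells and none in the other 9 libraries before expansion. It ranged from 2.91 to 10.4 CPM at d16+2–3p and from 0.786 to 9.58 CPM (median 5.31) at d16+10p, without overlap with primed cells in either group. The ratio to primed cells over pooled reads was 34.0 at d16+10p, with an exact 95% interval of 5.98 to 1355 for counting error, and 41.1 (7.17 to 1642) at d16+2–3p. Both differences were called, with adjusted p-values of 0.00467 and 0.0035 (edgeR). Exons of Sycp3 overlap exons of Chpt1 on the opposite strand, and the use of strand in counting is not given in the sources used here. Chpt1 stood at 19.0 to 23.6 CPM in primed cells and at 16.1 to 25.8 CPM at d16+10p, and it was highest in d16 cultures, at 60.0 to 108 CPM, where Sycp3 had 0 reads.

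Sycp1 (ENSMUSG00000027855, chromosome 3, 102818499 to 102936100, minus strand), which forms the transverse filaments that join paired chromosomes, had no reads before expansion. It stood at 4.16 to 7.05 CPM at d16+2–3p and at 0 to 6.87 CPM (median 1.89) at d16+10p, where 1 library at 0 overlapped the primed libraries. By group means, it was at least 2.05-fold higher at d16+10p (edgeR adjusted p = 0.0188) and at least 4.64-fold higher at d16+2–3p (edgeR adjusted p = 0.00601). At d16+10p, Sycp1 exceeded 3 reads in 4 of 7 libraries.

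Slc25a31, the ADP/ATP carrier of the testis, had 2 rows. Row 1 is ENSMUSG00000069041 (chromosome 3, 40708855 to 40726096, plus strand), and row 2 is ENSMUSG00000116218, which has no entry in GENCODE M21, so reads could be split between them. Neither had reads in primed cells, and cultures held 1 read of row 1 and 2 reads of row 2. Row 1 ranged from 2.91 to 5.99 CPM at d16+2–3p and from 0.393 to 4.64 CPM (median 1.63) at d16+10p. Row 2 ranged from 1.53 to 4.94 and from 0.393 to 4.02 CPM (median 1.18). Both rows were free of overlap with primed cells in both groups. By group means, they were at least 1.81-fold and 1.61-fold higher than primed cells at d16+10p, with adjusted p-values of 0.00556 and 0.0103 (edgeR). At d16+2–3p they were at least 3.37-fold and 2.98-fold higher, with 0.00177 and 0.00361 (edgeR). At d16+10p, row 1 exceeded 3 reads in 5 of 7 libraries and row 2 in 3 of 7.

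Tex19.1 by ID (chromosome 11, 121146143 to 121148319, plus strand), a gene that restrains retrotransposons in germ cells and is also known from pluripotent cells, moved from 0 and 4 reads in the primed Oct4GIP and 129/MSM libraries to between 104 and 208 reads in the reverted libraries. It stood at 50.5 to 64.9 CPM at d16+2–3p and 41.5 to 78.7 CPM at d16+10p, with no overlap with primed cells. The fitted log2 differences were 6.26 (SE 0.57, edgeR adjusted p = 3.88e-07) and 6.44 (SE 0.56, edgeR adjusted p = 1.24e-07). These values rested on the 4 reads of the primed 129/MSM library. Without it they were 10.26 and 10.42, and without primed Oct4GIP 5.39 and 5.58, all called. Its spread among the 11 reverted libraries was narrow (60.0 ± 11.6 CPM, SD).

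**Figure D4:**
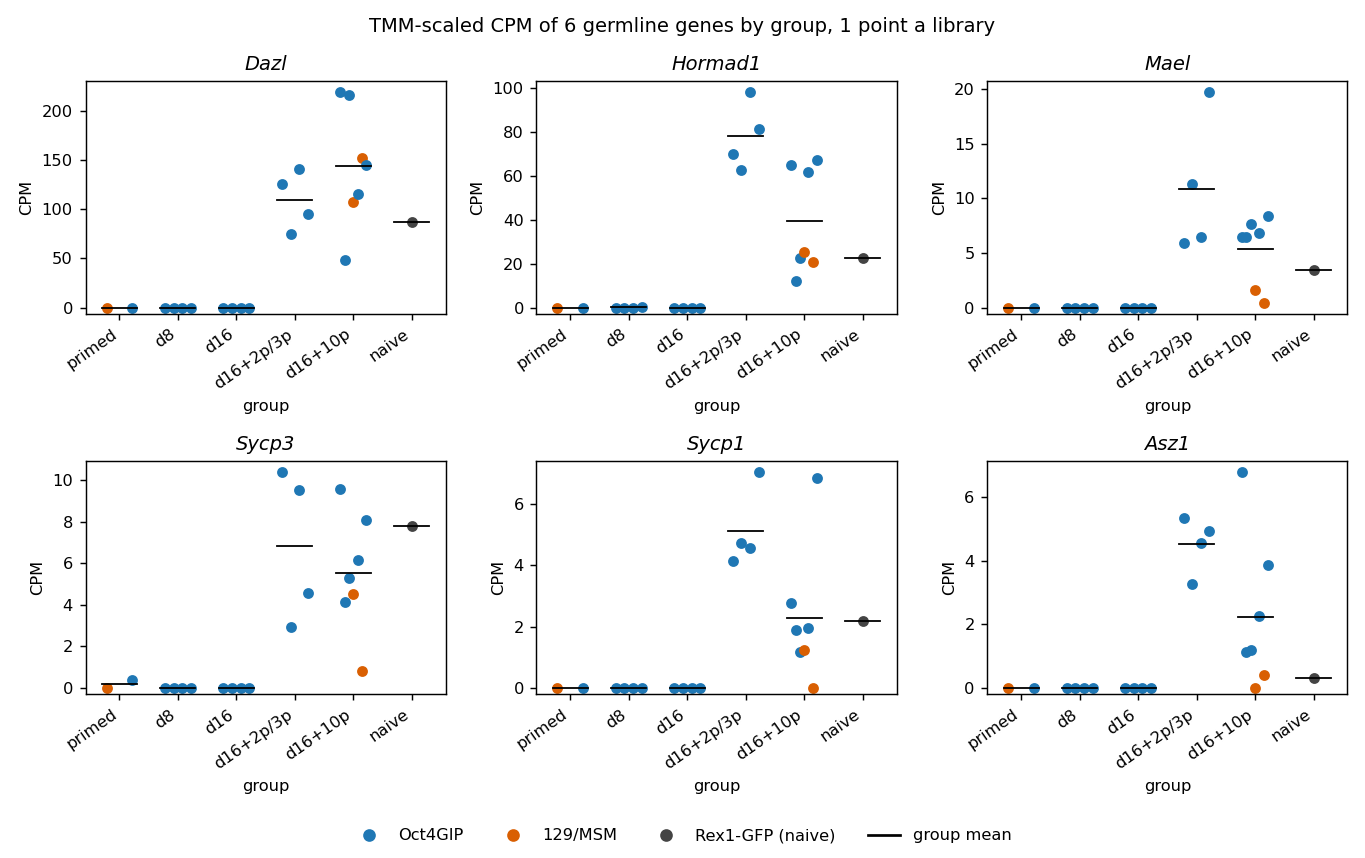
CPM (vertical axis, a separate scale in each panel) of Dazl, Hormad1, Mael, Sycp3, Sycp1 and Asz1 in each library by group (horizontal axis), coloured by cell line, with lines at the group means. Primed, d8 and d16 libraries lie at or next to 0 in every panel, and the 129/MSM points are among the lowest at d16+10p for Mael, Sycp1 and Asz1.

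How many primed libraries entered the fit decided several calls with few reads. At d16+10p, leaving out the primed 129/MSM library left 4 of 9 rows called, namely Dazl, Mael, Hormad1 and Slc25a31 row 1. Leaving out the primed Oct4GIP library lost Asz1, Sycp1 and Slc25a31 row 2 and gained Ddx4. At d16+2–3p, Asz1 was not called without either primed library. With counts thinned to the smallest library total, 4 rows could be tested in each of the comparisons with primed cells and 2 were called.

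Levels between genes can be compared per length. In CPM per kb of annotated exon over the 11 reverted libraries, Hormad1 (median 36.0, up to 56.7) and Dazl (median 32.8, 12.8 to 57.4) were the highest members and overlapped each other. Tex19.1 by ID lay beside them (median 32.8, 22.2 to 42.0). Ddx4 (5.38, 1.90 to 8.82), Sycp3 (4.20, 0.622 to 8.23) and Mael (3.74, 0.227 to 11.4) formed a lower tier whose ranges overlapped. Slc25a31 row 1 (1.37, up to 2.82), Asz1 (1.16, up to 2.40), Sycp1 (0.782, up to 1.98) and Tdrd1 (0.139, up to 0.439) were lowest, also with overlapping ranges between neighbours.

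Reads were spread over annotated transcripts of most members. Of 3954 reads of Dazl in reverted cells, 40.4% and 38.9% were assigned to 2 protein-coding transcripts and 10.9% to a transcript with a retained intron. The 4 transcripts of Hormad1 took between 21.3% and 28% of 1701 reads each. The 2 transcripts of Ddx4 took 46% and 54% of 491 reads in reverted cells, and 23 and 21 of the 44 reads in primed Oct4GIP cells, so both were read in either state. Reads were mapped to transcript sequences, and the assignment of a read shared by isoforms is uncertain.

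Passage number was addressed by comparing d16+10p with d16+2–3p cells. No member row was called in edgeR's test (0 of 9), where 9.35% of all genes were, 4.75% higher and 4.61% lower, and 1 row, Hormad1, had an unadjusted p under 0.05. DESeq2 called 0 and limma voom called 1, Hormad1. Hormad1 had a log2 difference of -0.98 (SE 0.38, edgeR adjusted p = 0.12), with 77.8 CPM on average after 2 or 3 passages and 39.2 CPM after 10. Dazl had a difference of 0.40 in the other direction (SE 0.33, edgeR adjusted p = 0.536). Fitted differences were below 0 for 7 of 9 rows, with a median of -0.87 against -0.00055 over all genes tested, and the largest was Sycp1 at -1.10 (SE 0.62, edgeR adjusted p = 0.324). The groups overlapped for each of the 9 rows, where 5.96% of all genes were higher and 6.29% lower without overlap. The 7 d16+10p libraries include both 129/MSM libraries while the d16+2–3p libraries are Oct4GIP alone, and 3 of the 7 came from A769662, A769662+LIF or metformin+LIF while the d16+2–3p libraries came from AICAR or AICAR+LIF. Passage is thus mixed in part with both line and activator in this comparison.

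The line itself was compared at d16+10p between the 2 129/MSM and the 2 Oct4GIP libraries with AICAR and AICAR+LIF. The 129/MSM line is XY and the Oct4GIP line XX, so line and sex chromosomes cannot be told apart in any comparison of these lines. Comparisons that use the primed libraries also mix line with their different media and feeders. No row was called in edgeR's test (0 of 9), where 1.28% of all genes were, 0.784% higher and 0.491% lower, and 4 rows had an unadjusted p under 0.05. DESeq2 and limma voom also called 0, with 2 and 4 rows at an unadjusted p under 0.05. All 9 fitted differences were below 0 (median -1.79, against 0 over all genes tested), meaning lower values in 129/MSM cells. For 6 rows, Ddx4, Mael, Asz1, Sycp3 and both rows of Slc25a31, both 129/MSM values lay below both Oct4GIP values, a pattern that 23.6% of all genes showed in that direction and 23.5% in the other.

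Mael stood at 1.64 and 0.393 CPM in 129/MSM and at 7.67 and 6.83 CPM in Oct4GIP cells, a log2 difference of -2.79 (SE 0.80, edgeR adjusted p = 0.138). Ddx4 stood at 5.74 and 5.90 against 21.2 and 21.8 CPM, a log2 difference of -1.88 (SE 0.55, edgeR adjusted p = 0.115). Dazl overlapped between the lines, with 107 and 152 CPM in 129/MSM and 215 and 116 CPM in Oct4GIP cells (-0.35, SE 0.54, edgeR adjusted p = 0.895). Hormad1 also overlapped, with 25.4 and 20.8 against 22.4 and 61.5 CPM (-0.88, SE 0.60, edgeR adjusted p = 0.653). None of these differences passed the threshold, which does not show that the lines were alike.

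**Figure D5:**
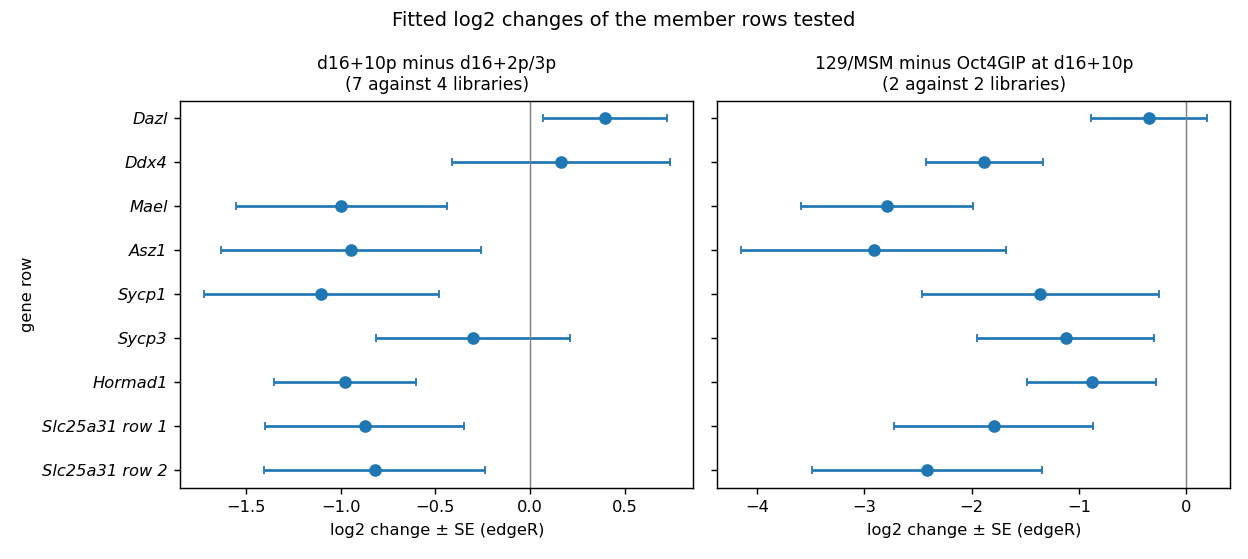
Fitted log2 differences with their standard errors (horizontal axes, edgeR) for the 9 member rows tested (vertical axis), between d16+10p and d16+2–3p cells on the left and between 129/MSM and Oct4GIP cells at d16+10p on the right. On the left 7 of 9 points lie below 0 and on the right all 9 do, and no row passed the adjusted threshold in either comparison.

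Each line can also be set against its own primed library, with 1 primed library a line and no test. In 129/MSM cells, Dazl was at least 136-fold, Hormad1 at least 24.3-fold, Ddx4 at least 6.12-fold and Sycp3 at least 2.78-fold higher at d16+10p than the floor of the primed library. Mael was at least 1.07-fold higher there, and the means of Asz1 (0.197 CPM), Sycp1 (0.615 CPM), Tdrd1 (0.205 CPM) and the Slc25a31 rows (0.606 and 0.401 CPM) lay below that floor of 0.951 CPM, so no rise of these 5 rows was measurable in 129/MSM cells at this depth. In Oct4GIP cells, Dazl was at least 134-fold and Hormad1 at least 41.2-fold higher, while Ddx4 exceeded its primed value in 4 of 5 libraries. The difference between the lines in the change from primed to d16+10p gave 0 called rows of 9 in edgeR's test, where 0.977% of all genes were called, 0.245% higher and 0.731% lower. Of the members, 1 row, Ddx4, had an unadjusted p under 0.05 in edgeR, and DESeq2 and limma voom called 0. For Ddx4 this difference was 6.59 on the log2 scale (SE 1.78, edgeR adjusted p = 0.0871), and its direction rests on the primed 129/MSM library at 0. For the rows at 0 in both primed libraries the difference cannot be estimated.

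The activators could be compared only by single Oct4GIP libraries at d16+10p. A769662+LIF had the lowest value of the 5 libraries for 8 of 10 rows, and A769662 without LIF had the highest for 5, Dazl, Asz1, Sycp3 and both rows of Slc25a31. The metformin+LIF library had the highest value for the other 5, Ddx4, Mael, Tdrd1, Sycp1 and Hormad1. Some of the lowest places were near ties. Mael stood at 6.43 CPM in A769662+LIF and 6.49 in A769662. Asz1 stood at 1.13 CPM from 3 reads in A769662+LIF and 1.18 CPM from 2 reads in AICAR. The share of all genes lowest or highest in each library was not computed, so these counts do not set the members apart. Dazl stood at 215 CPM with AICAR, 116 with AICAR+LIF, 219 with A769662, 48.8 with A769662+LIF and 145 with metformin+LIF. Hormad1 did not keep that order, with 22.4, 61.5, 64.6, 12.1 and 67.2 CPM. With 1 library an activator, these differences have no replicate check, and activator and library cannot be told apart.

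Early LIF was compared within 4 pairs of AICAR+LIF and AICAR libraries of the same line and passage. No gene was called among 12940 tested in edgeR (0% in either direction), and so no member among the 6 rows tested. At an unadjusted p under 0.05, edgeR gave 1 row, Hormad1, DESeq2 also gave 1, and limma voom gave 0. Hormad1 was higher with LIF in 3 of 4 pairs, with means of 65.4 against 45.0 CPM and a log2 difference of 0.50 (SE 0.21, edgeR adjusted p = 0.9997). Dazl was higher in 3 of 4 pairs, with means of 126 and 131 CPM. A fit without the pairs gave no called member either.

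Before expansion, Ddx4 was the only member with more than 1 read in a library. It stood at 3.63 CPM in Basal medium, 5.82 in 2iL, 2.85 in AICAR and 3.97 in AICAR+LIF at d8. At d16 it stood at 10.0, 4.42, 3.13 and 2.64 CPM in the same order, so all 8 cultures lay below primed Oct4GIP cells and above primed 129/MSM cells. Against primed cells 0 of 9 rows were called in edgeR at d8, where 27.7% of all genes were, 14% higher and 13.7% lower, and 0 of 9 at d16, where 42.4% were, 22% higher and 20.4% lower. At an unadjusted p under 0.05 edgeR gave 0 rows on either day, and DESeq2 and limma voom also called 0. The rows other than Ddx4 had at most 1 read in any of these libraries and passed the filter only through other libraries. They could not be called at such counts, so these counts of 0 do not measure a lack of change. The fitted differences for Ddx4 were -0.92 (SE 0.90, edgeR adjusted p = 0.484) and -0.60 (SE 0.83, edgeR adjusted p = 0.592). Fitted on Oct4GIP and naive libraries alone, Ddx4 was called lower on both days, with -1.93 (edgeR adjusted p = 0.0214) at d8 and -1.56 (edgeR adjusted p = 0.0321) at d16. Without the primed Oct4GIP library it was called higher on both days, with 6.54 (edgeR adjusted p = 0.0290) and 6.86 (edgeR adjusted p = 0.0109), so its direction and call rested on the primed library used.

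Within the cultures, Ddx4 was the 1 member tested for AICAR or AICAR+LIF against the other cultures, in a fit that allowed for the sampling day. It averaged 3.15 CPM with and 5.98 CPM without AICAR, a log2 difference of -1.05 (SE 0.42, unadjusted p = 0.0356, edgeR adjusted p = 0.142), and it was not called, where 9.6% of 14026 genes were, 3.54% higher and 6.06% lower. The groups overlapped, and the AICAR d8 and AICAR+LIF d8 values rested on 3 and 2 reads. Feeder fibroblast markers moved with these samples. All 12 were read in cultures, and their summed level ran from 206 and 1065 CPM in primed Oct4GIP and 129/MSM cells to between 3712 and 4071 CPM at d8 and between 6476 and 53972 CPM at d16, then to between 29.1 and 127 CPM in reverted cells. Their part in the low member values of cultures was not tested. The paper proposes that mEpiSCs first differentiate, perhaps toward mesoderm. Whether these markers tell feeders from such differentiated cells was not tested. Naive markers summed to between 16.6 and 125 CPM in cultures.

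The naive Rex1-GFP library fell inside the values of the 7 d16+10p libraries for all 10 member rows. It had 87.2 CPM of Dazl, above 1 of the 7, 22.4 CPM of Hormad1, above 2, and 8.41 CPM of Ddx4, above 2. It had 7.78 CPM of Sycp3 and 2.18 CPM of Sycp1, each above 5 of the 7, and 3.42 CPM of Mael, above 2. Tdrd1, Asz1 and the Slc25a31 rows were at 1 to 5 reads. Single libraries set this for 3 rows. Dazl lay below the range without A769662+LIF, Asz1 without 129/MSM AICAR and Slc25a31 row 1 without 129/MSM AICAR+LIF. Tex19.1 by ID differed from the members, with 123 CPM in naive cells, above all 7 d16+10p libraries (41.5 to 78.7 CPM). There is 1 naive library of another line, so no test was made. The d16+10p ranges began at 0 for Tdrd1, Asz1 and Sycp1 and at 0.393 CPM for Mael and the Slc25a31 rows, which left little room below them. The share of all genes inside such ranges was not computed, so the count of rows inside does not measure likeness to naive cells.

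Among the 11 reverted libraries, which share line, depth and passage in part, members varied together to differing degrees. Of 45 pairs of rows, 41 had a positive Pearson r of log2 CPM, with a median of 0.64. The highest was Tdrd1 with Sycp1 (0.89) and the 4 negative ones all involved Dazl, down to -0.30 with Tdrd1. Tdrd1 had more than 3 reads in 3 of these 11 libraries, and 1 of the pairs joined the 2 rows of Slc25a31 (0.82). The share of positive pairs among all genes was not computed, so the count does not set the members apart. Without Dazl and Ddx4, the remaining 8 rows summed to between 92.9 and 130 CPM at d16+2–3p, to between 29.1 and 101 CPM in Oct4GIP cells at d16+10p, to 34.4 and 23.2 CPM in the 129/MSM libraries and to 38.9 CPM in naive cells. Over all 22 libraries, the genes whose pattern was most like the mean of the 10 rows were Tbc1d10b (r = 0.98), Gm47626, Olfr46 and Gm48417 (each 0.97), Gm48128, Gm47036, Olfr986 and Ddx20 (each 0.96), among 11056 genes with a mean log2 CPM of at least 3. Over the 11 reverted libraries alone they were Tulp4 (0.97), Gm2792, Meioc, Tbc1d10b and Neb (each 0.95) and Ddx20, Rhox13 and Aebp2 (each 0.94), among 10856 genes. Meioc and Rhox13 are themselves germline genes.

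Other genes of the same pathways were taken as lists. Of 16 piRNA pathway genes tested, 10 were higher and 3 lower at d16+10p than in primed cells, of 23 rows for meiotic chromosome genes 12 were higher and 3 lower, and of 13 genes for germ cell RNA and chromatin 10 were higher and 0 lower, or 81.2%, 65.2% and 76.9% called beside 36.6% of all genes. Their median log2 differences were 2.88, 1.66 and 5.70 with genes at 0 set at their bound. In the same order, 4, 13 and 6 of the genes tested had no reads in primed or in d16+10p cells. Such a gene could pass the filter only through the libraries where it was read. The lists were also chosen with earlier results of these data known. These shares therefore describe the lists and carry no support of their own. At d16+2–3p the counts were 10 and 3, 13 and 3, and 10 and 0. The named genes that were higher at d16+10p had no primed reads, namely Dppa3 (at least 77.1-fold), a maternal factor also called Stella, Rpl10l (at least 59.3-fold), a testis copy of a ribosomal protein gene, Pramef12 (at least 55.9-fold), a germ cell gene, Tdrd12 (at least 53.3-fold), a piRNA pathway helicase, Sohlh2 (at least 52.1-fold), a germ cell transcription factor, and Stra8 (at least 39.9-fold), which acts at meiotic entry. Adjusted p-values ran from 4.75e-09 for Sohlh2 to 0.00761 for Stra8 (edgeR). Stra8 was not called at d16+10p without either primed library (edgeR adjusted p = 0.0582 and 0.0566).

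Not every germline gene rose. Tdrkh, which acts in piRNA trimming, fell by 5.45 on the log2 scale, from 79.3 to 1.73 CPM (edgeR adjusted p = 3e-08). The Tudor-domain genes Tdrd7 (-3.72) and Tdrd5 (-2.97) fell, as did Prdm9 (-2.58), which marks recombination hotspots, and Msh5 (-2.43), a crossover factor, with edgeR adjusted p-values of 0.00214 or less. Without primed Oct4GIP, Msh5 was not called (-1.54, edgeR adjusted p = 0.151). Rad21l, a meiotic cohesin subunit, had 0 reads in the 7 d16+10p libraries and was at least 1.22-fold lower (edgeR adjusted p = 0.00938). These 6 genes had reads in primed cells, where the members other than Ddx4 had at most 1. Meiob was also lower at d16+2–3p (-3.34, edgeR adjusted p = 0.0408), from 17 reads in 1 primed library, and Stk31, a Tudor-domain kinase, was at least 53.0-fold higher there.

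Between d16+2–3p and d16+10p, 1 of 16 piRNA pathway genes was higher and 1 lower, and 1 of 13 germ cell RNA and chromatin genes was higher and 1 lower. These are 12.5% and 15.4% called, beside 9.35% of all genes. Tdrd12 rose from 17.9 to 59.0 CPM (log2 1.71, edgeR adjusted p = 0.00662) and Tex14, of germ cell intercellular bridges, from 18.8 to 57.8 CPM (1.62, edgeR adjusted p = 0.00511). Stk31 fell from its d16+2–3p mean of 58.7 CPM (edgeR adjusted p = 0.0424) and D1Pas1, a testis DEAD-box helicase, from 70.1 to 33.7 CPM (edgeR adjusted p = 0.0462). The calls of Stk31 and D1Pas1 were lost on leaving out most single libraries. None of the 23 meiotic rows was called. In the line comparison at d16+10p, Stra8 stood at 1.61 CPM in 129/MSM and 70.8 CPM in Oct4GIP cells (-5.41, edgeR adjusted p = 0.0128) and Smc1b, a meiotic cohesin subunit, at 3.41 and 20.4 CPM (-2.55, edgeR adjusted p = 0.0343). These 2 were named after their values were seen, and 0 or 1 germline list gene was called when any 1 of the 4 libraries was left out.

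The DNA methylation machinery and the repressors of germline genes were read in primed cells except for Dnmt3l. Of 10 methylation genes, 6 were higher and 4 lower at d16+10p than in primed cells (median log2 difference 1.28), and of 21 repressor genes 6 were higher and 2 lower (median 0.31), a share of 38.1% beside 36.6% of all genes. Uhrf1, which recruits the maintenance methyltransferase, rose from 176 to 818 CPM (log2 2.21, edgeR adjusted p = 1.25e-05). Tet1 and Tet2, which oxidise methylcytosine, rose from 118 to 543 and from 41.8 to 207 CPM, while Tet3 fell from 64.5 to 12.1 CPM. The de novo methyltransferases Dnmt3b (-2.17) and Dnmt3a (-1.22) fell, with adjusted p-values of 0.0013 and 0.000194 (edgeR), as did the glycosylase Tdg (-1.07). Of the repressors, Hdac1 (1.55) and Wdr5 (1.49) rose and Yaf2 (-1.84) and Smchd1 (-0.74) fell. Without primed 129/MSM, Dnmt3b (-0.96, edgeR adjusted p = 0.262) and Smchd1 (-0.37, edgeR adjusted p = 0.254) were not called.

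Dnmt3l, the catalytically inactive cofactor of the de novo enzymes, had the largest difference of this list with passage. It had 0 reads in primed cells, 318 to 367 CPM at d16+2–3p and 1.77 to 38.2 CPM at d16+10p, with no overlap between the reverted groups. It was at least 310-fold higher at d16+2–3p (edgeR adjusted p = 3.14e-05) and at least 11.6-fold higher at d16+10p (edgeR adjusted p = 0.00553) than in primed cells, and it fell by 4.71 on the log2 scale between them (edgeR adjusted p = 0.000136). Its call at d16+10p against primed cells was lost without primed 129/MSM (edgeR adjusted p = 0.0515). Dnmt3b stood at 239 and 868 CPM in the primed libraries, which enclosed the d16+2–3p values of 420 to 570 CPM, and averaged 123 CPM after 10 passages. It fell by 2.05 with passage (edgeR adjusted p = 0.00308). Dnmt3a (-0.86), Ehmt1 (-0.90), Atf7ip (-0.74) and Trim28 (-0.45) fell, while Wdr5 (0.70) and Mga (0.52) rose, each with an edgeR adjusted p under the threshold. The calls of Mga and Trim28 were lost on leaving out single libraries. At d16+2–3p, against primed cells, 6 methylation genes were higher and 2 lower, and 7 repressors were higher, among them Trim28 (1.93) and Setdb1 (1.82), and 3 lower, Yaf2 (-2.54), Smchd1 (-0.95) and E2f6 (-0.91). Setdb1 stood at 103 and 513 CPM in the primed libraries, and without primed 129/MSM it (1.09), Smchd1 (-0.55) and E2f6 (-0.61) were not called, with edgeR adjusted p-values of 0.308, 0.0893 and 0.159. Without primed Oct4GIP the difference of Setdb1 was 3.39.

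Markers of other cell types were read beside the members. Of 5 primordial germ cell markers, 4 were higher at d16+10p than in primed cells, where 16.7% of all genes tested were. Their summed level was 25.8 and 235 CPM in primed and 212 to 736 CPM in reverted libraries. It was 553 CPM in the naive library, so this sum does not set germ cells apart from naive cells. The post-meiotic markers Prm2 and Acrv1 summed to between 0 and 1.14 CPM in reverted libraries, with no library above 3 reads of either. Of the oocyte markers, Zp3 was higher (10.7 CPM at d16+10p, 0 reads in primed cells), while Gdf9 and Bmp15 did not exceed 3 reads in a reverted library. Against primed cells, 11 of 12 feeder markers were lower at d16+10p and 9 of 12 at d16+2–3p. The part of these markers in the member values was not tested.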

How the data were processed

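Poly(A) RNA of 22 libraries was sequenced as single reads on a HiSeq2500 from a stranded kit. The authors mapped reads with Bowtie2 2.2.5 to Ensembl GRCm38 transcripts, kept those with a mapping quality of at least 1 and deposited whole-number read counts per gene and per transcript, without pooling. Whether counting used strand is not given in the sources used here. A deposited summary of the number of detected genes was not used.

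From the counts, edgeR 4.0.16 (R 4.3.3) was fitted with TMM factors, a filter on low counts by group and 1 coefficient a group over all libraries, with Benjamini-Hochberg adjustment over all genes tested and a threshold of 0.05. The line comparison used all libraries with each line, and the AICAR-derived d16+10p libraries, as groups of their own. The LIF comparison used only paired libraries with a term for the pair, and the AICAR comparison used only cultures with a term for the day. Where a group had no reads, a fold was set against a floor of 3 counts in its libraries. Such a fold used the mean of the other group, in which single libraries could lie at or below 3 counts. Exact intervals are at 95% and cover counting error only. Library totals of 438771 to 5290163 counts limit the precision of rows with few reads. Positions are from GENCODE M21 and promoters from RefSeq, which gave a window for all 10 symbols. DESeq2 1.42.0, limma 3.58.1 voom, other factors, filters, sample sets, thinning and leaving out libraries were alternatives. The methods were tested on simulated data.

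The members and the gene lists were chosen with earlier results of these data known. By rule, all members were named, up to 6 list genes a direction with the largest difference past the threshold in each of 3 comparisons, and the 8 genes most alike. Replicate numbers are not in the labels, so libraries were numbered in order and numbers paired nothing. No column of unmapped values was present. Groups were taken from the sample labels.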

Additional observations from a re-analysis of the deposited data

Results flagged for a closer look

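Of 22 groups of member values examined for a sample far from the others, 3 had one. The rule gives about 1 in 20 by chance only for independent, normally distributed values. Many of these rows hold few reads and the groups share libraries, so 3 of 22 cannot be set against that rate. Slc25a31 row 1 stood at 5.99 CPM in AICAR+LIF d16+3p, the highest of 4 d16+2–3p libraries, with the next at 3.05 CPM. Tdrd1 stood at 2.39 CPM in metformin+LIF d16+10p, with the next of 7 libraries at 0.756 CPM. Sycp1 stood at 6.87 CPM in that same library, with the next at 2.78 CPM. Sycp1 and Tdrd1 were the most closely correlated pair of members, and the metformin+LIF library carried the highest d16+10p value of both. There is no second metformin library.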

How the results depend on the processing

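Of the recomputed counts for members, 137 stayed within 1.5 times the reported count and 12 did not. Against primed cells at d16+10p the count of 8 became 4 with only the 2 groups fitted and 2 with counts thinned to the smallest library, where fewer rows could be tested, and 4 to 8 with libraries left out in turn, the 4 without primed 129/MSM. At d16+2–3p thinning gave 2. For passage, limma voom gave 1 in place of 0. For d8 and d16 cultures the count was 0 to 1 with libraries left out, the 1 without primed Oct4GIP, and 1 with Oct4GIP and naive libraries alone. The naive library lay outside the d16+10p range for 0 to 1 row when a library was left out. The cause of the other changes was not tested.

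Directions turned for rows near 0 or resting on 1 primed library. With libraries left out, Meiob ran from -4.35 to 2.75 at d16+2–3p. Ddx4 ran from -0.14 to 8.32 at d16+2–3p (-0.18 with Oct4GIP and naive libraries alone), from -0.00601 to 0.31 with passage (-0.0300 by limma voom), from -1.99 to 6.54 at d8 (1.57 by limma voom) and from -1.67 to 6.86 at d16 (1.75 by limma voom). Between lines, Dazl ran from -0.73 to 0.16 and Hormad1 from -1.41 to 0.0430. For LIF, the leave-out ranges were -0.15 to 0.33 for Dazl, -0.17 to 0.10 for Ddx4, -0.20 to 0.34 for Mael, -0.0786 to 0.40 for Sycp1, -0.39 to 0.16 for Sycp3 and -0.17 to 0.0145 for Tex19.1 by ID. Sycp1 was -0.0428 by DESeq2 and -0.00371 by limma voom, and Dazl was -0.00126 without factors. Without the replicate block, that is without pairing by line and passage, Dazl was -0.0585 and no member was called.

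Over all genes, counts called ran from 3564 to 6996 around 6863 at d16+10p against primed, 3653 to 7284 around 7180 at d16+2–3p, 603 to 3002 around 1753 for passage, 1550 to 5374 around 5190 at d8, 4702 to 8147 around 7950 at d16, 0 to 3143 around 1347 for AICAR, 0 to 68 around 0 for LIF, 29 to 473 around 239 between lines and 83 to 578 around 183 for the line difference. Without factors the median of all genes moved to -0.11 at d16+10p and -0.17 at d16+2–3p, and with RLE factors to 0.15 at d16. For AICAR the share of called genes that were higher was 36.9%, and 54.4% without factors. Summing both Slc25a31 rows, chosen after seeing the data, kept each member count within 1.5 times. The line difference without a primed library was not run. Germline list genes called numbered 38 and 39 in the 2 comparisons of reverted with primed cells, and 25 and 23 with thinning. Depth limits Tdrd1, Asz1, Sycp1 and Slc25a31 most, with a few reads a library.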

Other observations

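The 2 most abundant members kept different proportions early and late. The number of Dazl reads per Hormad1 read was 1.80 and 1.43 in AICAR and AICAR+LIF d16+2p and 1.19 and 1.17 in the d16+3p libraries, with a median of 1.31. At d16+10p it ran from 1.88 in AICAR+LIF to 9.61 in AICAR, both Oct4GIP, with a median of 4.03, and it was 3.89 in the naive library. The d16+2–3p and d16+10p ranges did not overlap. The ratio does not depend on scaling between libraries. It was chosen after its values were seen, so no test was made, and 129/MSM libraries, at 4.23 and 7.28, are present at d16+10p alone. The A769662, A769662+LIF and metformin+LIF libraries are also present at d16+10p alone. The share of gene pairs whose ratio separates these groups was not computed.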
